A study of Homo sapiens with 28 samples.

Results

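The sites described here are places on the chromatin of GP5d cells where MYC was called and nothing else in the study's set of bound proteins was. They were chosen by the control siRNA peak calls alone, as the MYC peaks that shared no base with a peak of HNF4A, JUND, KLF5, REST, RFX2, RAD21, SMC3, NIPBL or CTCF. Of 13589 control MYC peaks, 3213 (23.6%) met this rule and are called solitary MYC sites in what follows. The other 10376 control MYC peaks carried at least 1 of the 9 targets and serve as the comparison. The rule speaks of peak lists, so a solitary site is one at which none of 9 libraries passed the peak caller's cutoff.

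MYC is a basic helix-loop-helix leucine zipper protein that binds DNA as a dimer with MAX, and it sits mostly at active promoters and enhancers, where it raises the output of genes of growth, ribosome production and metabolism. In colon cancer it is a main target of Wnt signalling. RAD21 and SMC3 belong to the ring of cohesin, which NIPBL loads onto DNA and which extrudes chromatin loops up to sites of CTCF. HNF4A and KLF5 are factors of the intestinal epithelium, JUND is a member of AP-1, REST represses neuronal genes and RFX2 acts on genes of the cilium. Monomethylation of lysine 4 of histone H3 (H3K4me1) marks enhancers and the flanks of active promoters.

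Chromatin immunoprecipitation and sequencing (ChIP-seq) was done in GP5d, an established human colon adenocarcinoma line, harvested 72 h after transfection with 50 nM siRNA, either against RAD21 (siRAD21) or a neutral control. Each of the 11 targets had 1 library per siRNA. No difference between the siRNAs therefore has a replicate check, no p-value was computed, and every interval below covers counting error only. The intervals treat peaks, or tags kept at 1 per position, as independent, which was not tested, so they may be too narrow.

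Filtered tags numbered 1747770 to 15263937 in the 11 siRAD21 libraries and 3629966 to 19926326 in the 11 control libraries. The MYC libraries were of near equal depth after filtering, with 9801218 tags under RAD21 siRNA and 9603820 under control siRNA, but 64% of the siRAD21 reads and 29% of the control reads were repeats of a position. The rabbit IgG background library, against which MYC, H3K4me1 and 7 of the 9 targets were called, held 4101535 tags under RAD21 siRNA and 8916252 under control siRNA. The RAD21 library itself gave 19752 peaks under RAD21 siRNA and 36204 under control siRNA, and the amount of RAD21 protein was not analysed here. The control lists of JUND and NIPBL held no peak at a false discovery rate (FDR) under 5%, so 2 of the 9 lists in the rule were weak ones. A tag for the siRNA in the labels names RAD21 for a single siRAD21 library. For the rest it has the same stem with other numbers, against their titles, which were followed here. The antibody number given for H3K4me1 is known for histone H3 in general, and the number given for MYC belongs to a mouse antibody although the titles say rabbit, so the names of these libraries rest on their titles.

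The solitary sites were narrower and, without regard to strength, held fewer tags than the other MYC peaks. Their median width was 1440 bp, against 1715 bp at the other MYC peaks, and they held a median of 41 tags, against 49. The widths ran from 403 to 7834 bp and the tags from 12 to 460. The median significance, on the −10 × log10 p scale of the peak caller, was 73.8 at the solitary sites and 90.2 at the others. Tag density hardly differed, with medians of 27.6 tags per kb at the solitary sites and 27.5 at the others, and the fold over background had medians of 7.47 and 7.60. Narrow peaks have less room to overlap anything, so width belongs to the rule and is given as a description. Within strata of like significance the median widths of solitary and other sites differed by −155 bp on average, while the differences in median tags (0.438) and fold (0.217) turned slightly above 0.

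The edge of the rule was thinly filled. Only 49 solitary sites had a control peak of the 9 targets less than 100 bp away, with medians of 33 tags, 66.8 on the −10 × log10 p scale and 1340 bp. Just outside, 29 other MYC peaks shared at most 100 bp with such a peak, with medians of 33 tags, 60.7 and 1404 bp. The peaks on both sides of the threshold were thus alike in size and weak.

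Most solitary sites lay well apart from the other targets. The median distance to the nearest control peak of any of the 9 targets was 7079 bp, with quartiles of 2151 and 17244 bp, and the farthest site was 212040 bp away. By median distance the closest target was CTCF (median 14103 bp to the nearest of its 44027 peaks), then SMC3 (16963 bp) and RAD21 (18464 bp), and the farthest RFX2 (332989 bp), whose list of 2078 peaks was the shortest. With a margin of 1000 bp around each site in the rule, 2685 sites still qualified. The sites were spread over 1543 windows of 1 Mb, of which 720 held a single one and the fullest held 13. Chromosome 21 had the largest share of solitary sites among its MYC peaks, 31.3% (95% Clopper-Pearson interval 24.5% to 38.7%), and chromosome 17 the smallest, 20.3% (17.5% to 23.4%). The genes near these sites and the DNA sequence under them were not analysed here.

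The first question was how many of the sites still had a MYC peak under RAD21 siRNA. A siRAD21 MYC peak overlapped 985 of 3213 solitary sites, or 30.7% (29.1% to 32.3%), against 2945 of 10376 other MYC peaks, or 28.4% (27.5% to 29.3%). The share over all control MYC peaks was 28.9%. Sites with such an overlap are called retained and the rest lost, where lost means that no siRAD21 peak was called there. Without regard to strength, the 2 sets were 2.27 points apart (0.459 to 4.09).

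The solitary sites were weaker peaks to begin with, and at like strength their retained share was higher. In the weakest of 5 equal strata of all control MYC peaks by significance the shares were 12.2% at solitary sites and 13.0% at the others. In the next 3 strata they were 20.3% and 14.2%, then 29.4% and 21.4%, then 43.1% and 29.9%. In the strongest stratum 71.1% of solitary sites (66.8% to 75.2%) and 58.2% of the others (56.1% to 60.2%) were retained. The gap was thus present in 4 of the 5 strata and not in the weakest. Averaged over the 5 strata with Mantel-Haenszel weights, solitary sites exceeded the others by 7.05 percentage points (5.36 to 8.74).

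Against MYC peaks with a single partner the result depended on strength. Without regard to it, 30.7% of solitary sites (29.1% to 32.3%) and 34.2% of MYC peaks with exactly 1 of the 9 targets (32.4% to 36.0%) were retained, so solitary sites were lower. With the retained share averaged over the same strata, solitary sites stood at 35.2% and MYC peaks with 1 target at 34.6%, a difference at like strength of 0.499 points (−1.65 to 2.65), in a comparison chosen after seeing the data. The share was 28.9% with 2 targets, 25.2% with 3, 22.9% with 4 and 20.8% with 5, and 25.4% and 22.1% at the few peaks with 6 and 7. By kind of partner and without strata, 29.2% of MYC peaks with a factor but no cohesin, NIPBL or CTCF were retained. The share was 30.8% with cohesin, NIPBL or CTCF but no factor, and 26.4% with both, against 30.7% at solitary sites. At like strength, solitary sites exceeded MYC peaks with a factor but no cohesin, NIPBL or CTCF by 3.03 points (0.449 to 5.61). At like strength they also exceeded MYC peaks with cohesin, NIPBL or CTCF but no factor by 3.68 points (1.69 to 5.67), and those with both by 10.9 points (9.05 to 12.8). The lower retained shares among the other MYC peaks at like strength were thus those of peaks with 2 or more targets.

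**Figure D1:**
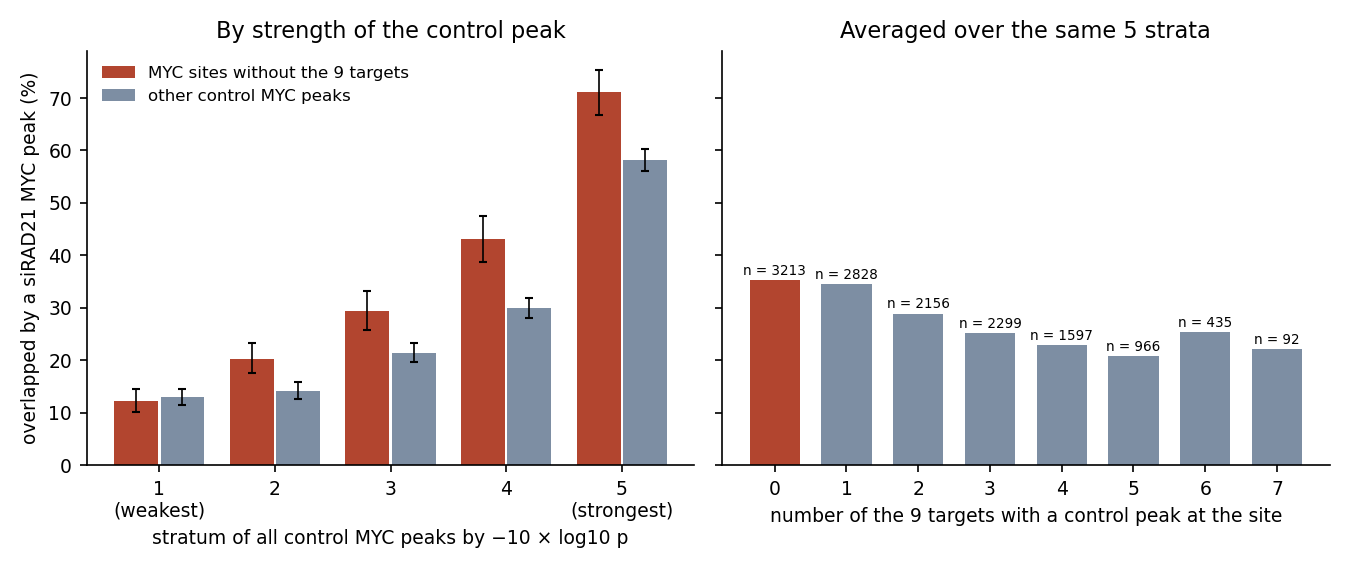
Share of control MYC peaks overlapped by a siRAD21 MYC peak. Left, by 5 equal strata of all control MYC peaks from weakest to strongest, with solitary MYC sites (red) left of the other MYC peaks (grey) and 95% Clopper-Pearson intervals as error bars: the shares reach 71.1% and 58.2% in the strongest stratum. Right, the share averaged over the same strata by the number of the 9 targets with a control peak at the site, from 35.2% with none and 34.6% with 1 to 20.8% with 5.

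Wider solitary sites were retained more often. In 4 groups of equal size from narrowest to widest, 10.6%, 23.0%, 32.6% and 56.4% were retained, and averaged over the strata of significance the 4 values were 16.4%, 26.4%, 31.3% and 46.9%. Distance from other proteins had no such gradient. The retained share was 30.1% at sites less than 1000 bp from a control peak of the 9 targets, and 33.0% at sites 20 to 50 kb away. At the 116 sites 50 kb or more away it was 26.7% (18.9% to 35.7%).

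Where a MYC peak was retained, it was smaller under RAD21 siRNA. The 985 retained solitary sites held a median of 38 tags in a siRAD21 peak of 1432 bp, against 75 tags in a control peak of 1916 bp. Per 1000000 filtered tags and kb of each library's own peak, the median tag density was 2.63 under RAD21 siRNA and 4.21 under control siRNA. It was lower under RAD21 siRNA at 96.2% of the sites, with a median ratio of 0.627. At the other retained MYC peaks the densities were 2.50 and 4.02 and the ratio 0.620, so the retained solitary sites were close to them in this.

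The fold over background went the other way from the tag density, with medians of 9.32 under RAD21 siRNA and 7.84 under control siRNA. The median significance was lower, 98.6 under RAD21 siRNA and 114 under control siRNA. The IgG library behind the fold and the significance had 0.460 times as many tags under RAD21 siRNA, and its part in these values was not tested. The summits stayed in place, with a median distance of 75 bp between the siRAD21 and the control summit and 81.9% of the pairs within 250 bp. Only 248 of the 985 siRAD21 peaks (25.2%) had an FDR under 5%, while all control MYC peaks did.

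**Figure D2:**
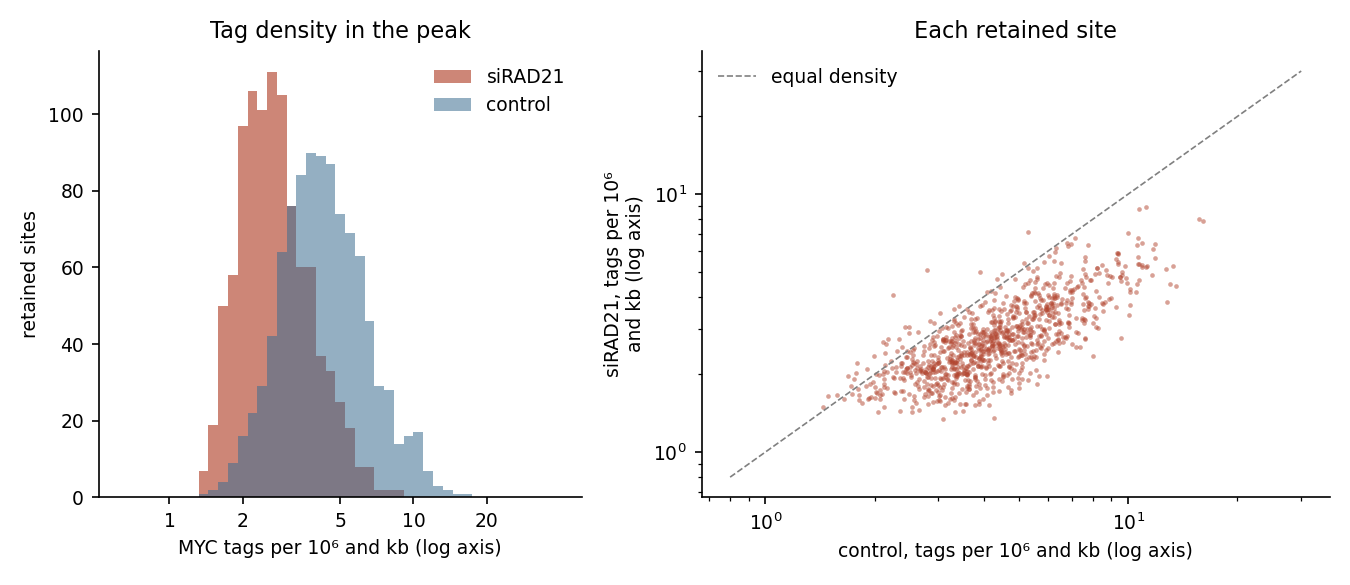
MYC tags per 1000000 filtered tags and per kb of peak at the 985 retained solitary MYC sites, on log axes. Left, the number of sites at each density under RAD21 siRNA (red, median 2.63) and control siRNA (blue, median 4.21). Right, each site as a point with its siRAD21 density (vertical) against its control density (horizontal): 96.2% lie under the dashed line of equal density.

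H3K4me1, which the rule did not use, covered most solitary sites under both siRNAs. A siRAD21 H3K4me1 peak overlapped 79.5% of them (78.1% to 80.9%) and a control H3K4me1 peak 79.2% (77.8% to 80.6%), a difference smaller than either interval. At the other MYC peaks the shares were 86.3% under RAD21 siRNA and 88.2% under control siRNA, and over all control MYC peaks 84.7% and 86.1%. At like strength, the difference between solitary sites and other MYC peaks was −5.16 points under RAD21 siRNA (−6.70 to −3.62) and −7.93 points under control siRNA (−9.47 to −6.39). With strata of width added, the differences were −2.42 (−3.91 to −0.921) and −6.08 (−7.60 to −4.55). Under control siRNA the shortfall was against MYC peaks that carried a factor: it was −8.55 points (−10.7 to −6.37) against peaks with a factor but no cohesin, NIPBL or CTCF, and −0.829 (−2.71 to 1.05) against peaks with cohesin, NIPBL or CTCF but no factor.

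The H3K4me1 regions at solitary sites were also smaller. Their median width was 3111 bp under RAD21 siRNA and 2735 bp under control siRNA, against 4204 and 3738.5 bp at the other MYC peaks. They held medians of 8.84 tags per 1000000 filtered tags under RAD21 siRNA and 7.21 under control siRNA, where those at the other MYC peaks held 13.6 and 12.1. Of the solitary sites with the mark, 10.1% under RAD21 siRNA and 18.0% under control siRNA touched the marked region with their flank alone. The MYC summit itself lay inside an H3K4me1 peak at 71.5% of solitary sites under RAD21 siRNA and at 64.9% under control siRNA, against 79.7% and 77.3% at the other MYC peaks. The siRAD21 H3K4me1 library had 0.528 times the filtered tags of the control library, and all of its peaks but not all control peaks passed an FDR of 5%. Restricted to peaks under that FDR, the shares of solitary sites with H3K4me1 were 79.5% under RAD21 siRNA and 63.6% under control siRNA.

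The mark thinned out with distance from other proteins. At solitary sites less than 1000 bp from a control peak of the 9 targets, 86.6% had a siRAD21 H3K4me1 peak and 84.1% a control one. At sites 50 kb or more away the shares were 60.3% and 68.1%, although the MYC peaks there had about the same median significance, 75.8 against 75.4. Of the 2545 solitary sites with a control H3K4me1 peak, 88.8% (87.5% to 90.0%) also had a siRAD21 one, against 92.2% (91.7% to 92.8%) at the other MYC peaks and 91.5% over all control MYC peaks with the mark.

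MYC retention followed H3K4me1 under RAD21 siRNA more than under control siRNA. Of the 295 solitary sites with H3K4me1 under RAD21 siRNA only, 48.1% (42.3% to 54.0%) kept a MYC peak, and of the 2260 with the mark under both siRNAs 34.1% (32.2% to 36.1%) did. The share was 12.6% (9.01% to 17.1%) at the 285 sites marked under control siRNA only and 9.65% (6.85% to 13.1%) at the 373 sites with neither. At like strength of the MYC peak, a siRAD21 H3K4me1 peak went with a retained share 30.6 points higher (23.8 to 37.4) among sites without the control mark, and 16.5 points higher (12.6 to 20.4) among sites with it. A control H3K4me1 peak made a difference of 0.840 points (−2.67 to 4.34). Among sites marked under RAD21 siRNA, those without a control mark exceeded those with one by 13.0 points (7.28 to 18.6). At the other MYC peaks 47.4%, 29.7%, 13.1% and 14.0% were retained in these 4 states, so the lowest share was at peaks marked under control siRNA only. The siRAD21 MYC and H3K4me1 peaks were called against the same IgG library, and what that shared library adds to the link was not tested.

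**Figure D3:**
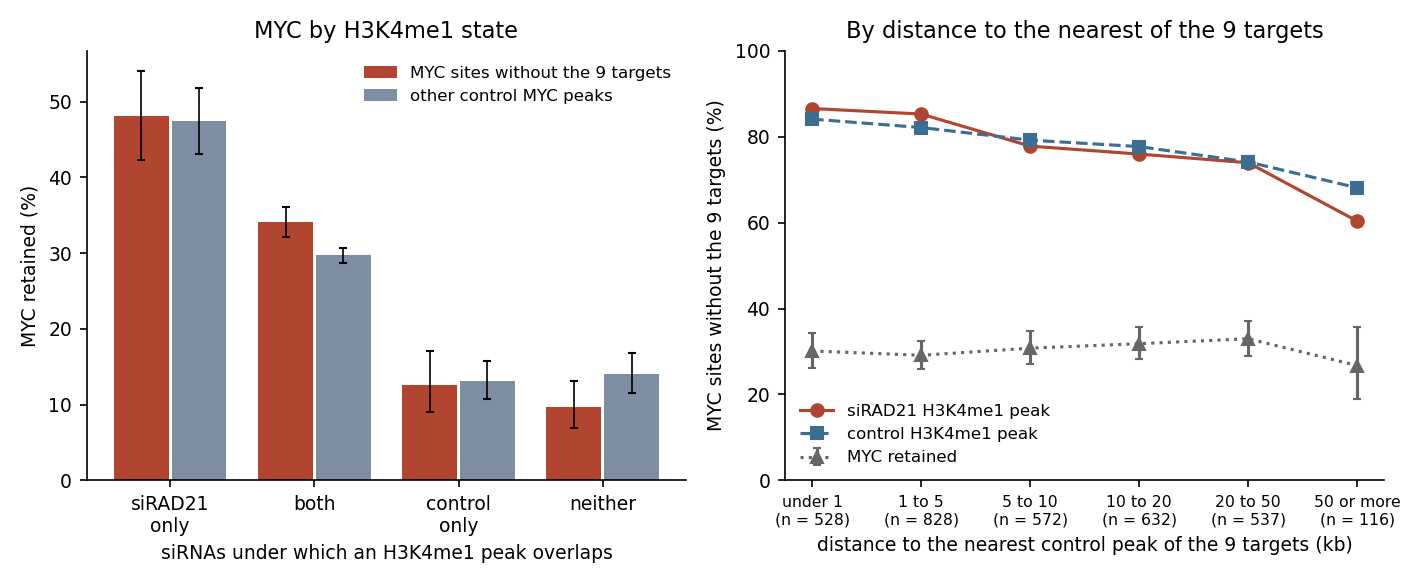
Left, share of MYC peaks retained under RAD21 siRNA (with 95% Clopper-Pearson intervals) by the siRNAs under which an H3K4me1 peak overlapped the site, for solitary MYC sites (red) and other MYC peaks (grey): 48.1% of solitary sites marked under RAD21 siRNA only were retained and 9.65% of those never marked. Right, for solitary sites by distance to the nearest control peak of the 9 targets, the share with a siRAD21 H3K4me1 peak (red), with a control H3K4me1 peak (blue) and with a retained MYC peak (grey, with intervals): H3K4me1 goes down to 60.3% and 68.1% at 50 kb or more, and MYC retention stays between 26.7% and 33.0%.

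The rule made the 9 targets absent under control siRNA, and their siRAD21 lists were free to place peaks at the sites. At 1437 of 3213 solitary sites (44.7%, 43.0% to 46.5%) at least 1 of the 9 did, against 66.8% of the other MYC peaks and 61.6% of all control MYC peaks. With all deposited peaks JUND came first. A siRAD21 JUND peak lay at 33.3% of solitary sites (31.7% to 35.0%), against 34.0% of the other MYC peaks that also lacked a control JUND peak and 36.1% of all control MYC peaks. NIPBL, the cohesin loader, followed with 17.7% (16.4% to 19.1%), against 18.4% of the others lacking it and 21.2% overall. With siRAD21 peaks at an FDR under 5% the order turned, with CTCF at 10.5% of solitary sites, NIPBL at 5.23%, HNF4A at 4.70% and JUND at 3.11%. Over all deposited peaks, JUND and NIPBL were thus called at solitary sites under RAD21 siRNA about as often as at any MYC peak that had lacked them.

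The remaining targets were rarer there. CTCF had a siRAD21 peak at 10.5% of solitary sites, against 8.63% of the other MYC peaks without a control CTCF peak and 25.6% of all control MYC peaks. HNF4A had one at 8.40%, against 9.89% and 16.4%, and RAD21 itself at 6.16%, against 9.42% and 17.1%. SMC3 came to 3.30%, against 4.46% and 10.7%. KLF5 (1.90%, 1.96% and 4.76%), REST (1.87%, 1.37% and 2.19%) and RFX2 (0.903%, 0.964% and 1.71%) were at the bottom in all 3 sets. RAD21 and SMC3 peaks together lay at 35 solitary sites (1.09%), against 1019 of the other MYC peaks (9.82%).

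Set against MYC peaks that lacked the same target and were of like strength, most of these shares differed little. Solitary sites had more siRAD21 CTCF, by 2.85 points (1.58 to 4.11), more JUND, by 2.45 points (0.574 to 4.32), and more REST, by 0.618 points (0.0899 to 1.15). They had less RAD21, with a difference of −2.41 points (−3.54 to −1.29). The differences for NIPBL (0.604, −1.07 to 2.28), HNF4A (−0.577, −1.77 to 0.616), SMC3 (−0.688, −1.53 to 0.157), KLF5 (0.0684, −0.510 to 0.647) and RFX2 (0.0685, −0.313 to 0.450) had intervals that include 0. Relative to control, the siRAD21 libraries held 2.02 times the filtered tags for JUND and 0.352, 0.346 and 0.615 times those for NIPBL, CTCF and RAD21. JUND was thus the single target of these 4 with a deeper siRAD21 library. What depth adds to peaks that appear under RAD21 siRNA was not tested.

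**Figure D4:**
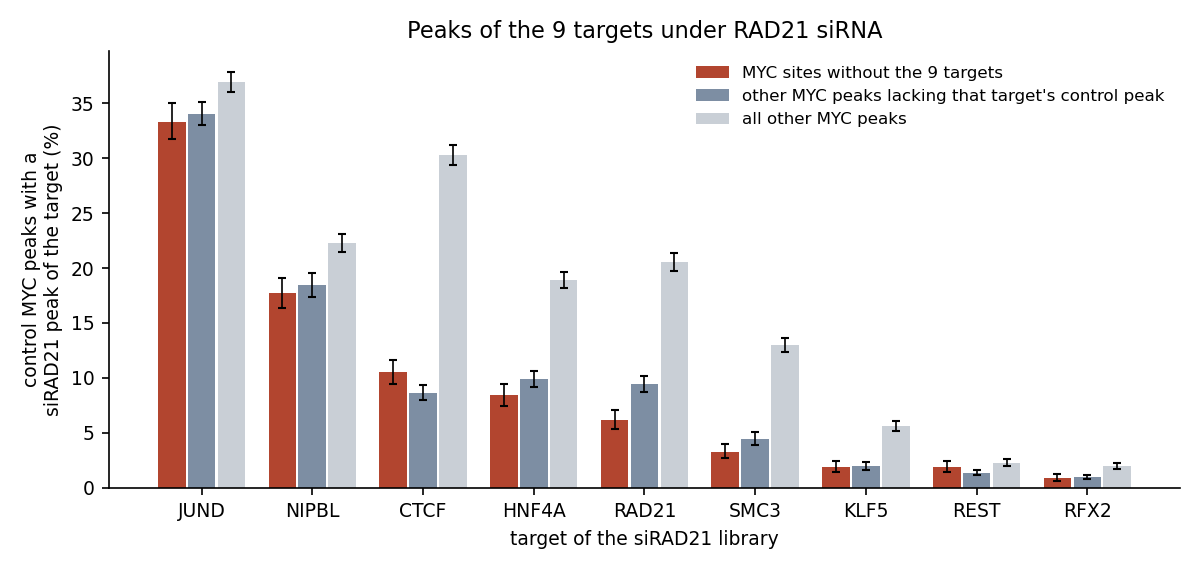
Share of control MYC peaks that overlap a siRAD21 peak of each of the 9 targets, with 95% Clopper-Pearson intervals, for solitary MYC sites (red), other MYC peaks that lacked a control peak of the same target (dark grey) and all other MYC peaks (light grey). With all deposited peaks, as drawn, JUND (33.3%) and NIPBL (17.7%) lead at solitary sites, where at an FDR under 5% CTCF leads (10.5%) and JUND has 3.11%, and for 8 of the 9 targets the red bar lies within 2 percentage points of the dark grey one, RAD21 being the exception at 6.16% and 9.42%.

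The targets under RAD21 siRNA collected at the solitary sites that kept MYC. JUND was called at 68.5% (65.5% to 71.4%) of the 985 retained sites and at 17.8% (16.2% to 19.4%) of the 2228 lost ones, 47.6 points apart at like strength of the control MYC peak (43.9 to 51.3). NIPBL was called at 41.2% of retained and 7.32% of lost sites, 29.2 points apart (25.7 to 32.8). For the other targets the shares were 18.0% and 7.23% (CTCF), 16.9% and 4.67% (HNF4A), 15.2% and 2.15% (RAD21), and 8.53% and 0.987% (SMC3). KLF5 (3.55% and 1.17%) and REST (3.45% and 1.17%) were rare in both. Other MYC peaks that lacked the same control target split in a like way, so this was not particular to solitary sites. Their retained and lost shares were 42.5% and 8.29% for NIPBL, 15.8% and 6.12% for CTCF, and 20.2% and 4.97% for HNF4A. For RAD21 they were 22.2% and 3.41%, and for SMC3 10.4% and 1.61%. Of the 9 intervals of the difference at solitary sites, 8 lay above 0, RFX2 being the exception with 0.263 points (−0.592 to 1.12).

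The link with JUND held at every strength of the control MYC peak. In the weakest stratum 60.6% of retained and 12.7% of lost sites had a siRAD21 JUND peak, and in the strongest stratum 72.0% and 18.8%. The other MYC peaks without a control JUND peak showed the same split, 70.1% and 19.6%, so it was not particular to solitary sites. JUND and NIPBL were also called together: NIPBL lay at 41.9% of solitary sites with a siRAD21 JUND peak and at 5.60% of those without. MYC, JUND and NIPBL share 1 siRAD21 rabbit IgG library, whose part in these overlaps was not tested. CTCF and RFX2 were called against another IgG library, from goat. Between retained and lost sites CTCF was 7.83 points apart (4.95 to 10.7) and RFX2, called at only 29 solitary sites, 0.263 points (−0.592 to 1.12). The targets called against the rabbit library ran from 1.92 points for REST to 47.6 for JUND. At an FDR under 5% for the siRAD21 JUND and NIPBL peaks, in an alternative added after seeing the data, the differences were 8.17 points for JUND and 11.8 points for NIPBL.

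MYC retention rose with the number of the 9 targets called under RAD21 siRNA, in counts not split by strength or width. Retention and targets were both scored by 1 shared bp of the same control MYC peak. Retained sites were wider, with a median of 1916 bp against 1440 bp at all solitary sites. The part of width in these counts, and in the differences between retained and lost sites above, was not tested. MYC was retained at 10.5% of the 1776 solitary sites with none of the 9 targets under RAD21 siRNA, at 39.6% of the 677 with 1, at 63.3% of the 441 with 2 and at 73.9% of the 188 with 3. It was retained at 72 of the 86 sites with 4 targets and at 32 of the 36 with 5. Under RAD21 siRNA, 1589 sites (49.5%) had neither MYC nor any of the 9 targets, and 502 (15.6%) had no H3K4me1 peak either, against 30.8% and 5.35% of the other MYC peaks. At the other end, 187 sites (5.82%) had MYC and still none of the 9, against 2.42% of the other MYC peaks.

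**Figure D5:**
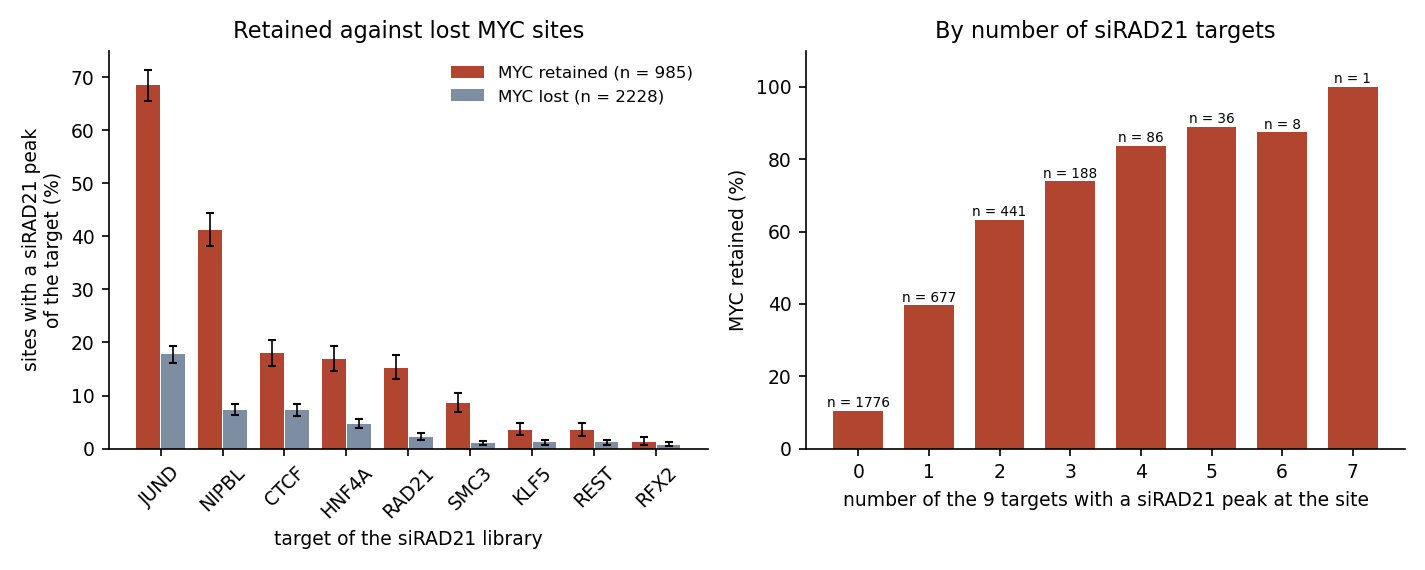
Left, share of solitary MYC sites with a siRAD21 peak of each target among sites that kept a MYC peak under RAD21 siRNA (red, 985 sites) and sites that did not (grey, 2228 sites), with 95% Clopper-Pearson intervals: JUND lies at 68.5% and 17.8%. Right, share of solitary sites that kept MYC by the number of the 9 targets called there under RAD21 siRNA, with the number of sites over each bar, from 10.5% with none to 73.9% with 3.

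The strongest solitary sites show these values one by one, with positions on hg18. Sites on chromosome 8 are not named. Off that chromosome, all 20 sites of the highest control significance were retained. The strongest, on chromosome 5 from 170746376 to 170749282, held 185 MYC tags under RAD21 siRNA (exact Poisson interval 159 to 214), against 448 under control siRNA (407 to 491), with summits 38 bp apart. Its siRAD21 fold was 29.5 and its control fold 28.3. Its H3K4me1 region was 6547 bp wide under RAD21 siRNA and 1574 bp under control siRNA. JUND (136 tags), NIPBL (47 tags) and CTCF (15 tags) were called there under RAD21 siRNA. The rule fixed these targets as absent under control siRNA, so no gain is read from these calls.

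A pair of the strongest sites had 5 of the 9 targets under RAD21 siRNA. On chromosome 1 from 89761801 to 89764263, MYC had 103 tags under RAD21 siRNA (84.1 to 125) and 320 under control siRNA (286 to 357), and JUND, REST, SMC3, NIPBL and CTCF were called. On chromosome 2 from 174819944 to 174822896, 82099 bp from any control peak of the 9, MYC had 78 tags under RAD21 siRNA (61.7 to 97.3) and 202 under control siRNA (175 to 232), with summits 4 bp apart. Its siRAD21 partners were HNF4A, JUND, RAD21, NIPBL and CTCF, and its control fold of 53.6 was the highest of all solitary sites. Both sites had fewer MYC tags under RAD21 siRNA, with intervals that do not overlap, at libraries of near equal filtered depth. These tags were counted over each library's own peak. On chromosome 1 the peaks were 2393 bp wide under RAD21 siRNA and 2463 bp under control siRNA. Their tags per kb, scaled by filtered tags, were 4.39 and 13.5. On chromosome 2 the peaks were 1181 and 2953 bp wide. Their density was 6.74 under RAD21 siRNA and 7.12 under control siRNA, and the fold was 60.6 and 53.6. The lower tag count on chromosome 2 thus went with a narrower peak of close density.

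Another 4 of the 8 strongest also had fewer MYC tags under RAD21 siRNA, again over each library's own peak. MYC had 185 tags under RAD21 siRNA and 460 under control siRNA on chromosome 1 (67666037 to 67670126). The tags were 179 under RAD21 siRNA and 401 under control siRNA on chromosome 12 (21700383 to 21703045). On chromosome 16 they were 78 under RAD21 siRNA and 242 under control siRNA between 3253220 and 3255834, and 107 and 333 between 11851242 and 11854469. All 4 had a siRAD21 NIPBL peak, and the last 3 of them a siRAD21 JUND peak. The remaining site of the 8 was on chromosome 19 from 41396259 to 41398956. MYC was called there with 134 tags under RAD21 siRNA (112 to 159) and 345 under control siRNA (310 to 383), with none of the 9 targets, and an H3K4me1 peak under RAD21 siRNA only. Its significance was 76.5 under RAD21 siRNA and 1274 under control siRNA, and its fold 4.96 and 18.45.

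The strongest site that had no siRAD21 MYC peak within 1000 bp ranked 23 off chromosome 8 by control significance. It lay on chromosome 19 from 63762007 to 63763853 and held 203 control tags (176 to 233) with a control significance of 826. H3K4me1 was called there with 100 tags under RAD21 siRNA and 158 under control siRNA, in regions of 3212 and 2488 bp, and no siRAD21 peak of the 9 targets was called. The next 7 such sites held 107 to 208 control MYC tags, with 208 on chromosome 17 (44846116 to 44848599) and 107 on chromosome 1 (40687560 to 40690114). All 8 had a siRAD21 H3K4me1 peak, and 7 also a control one, the exception being chromosome 21 from 29178460 to 29180362. Of the 8, 5 had none of the 9 targets under RAD21 siRNA. Most of these lost sites thus lay in H3K4me1 regions under both siRNAs, as did 70.3% of all solitary sites. In the strongest stratum 85.2% of solitary sites had a control mark, so these few sites do not stand apart in this.

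The solitary site with the most company under RAD21 siRNA lay on chromosome 17 from 23668534 to 23671548, with 7 of the 9 targets. MYC held 74 tags there under RAD21 siRNA (58.1 to 92.9) and 217 under control siRNA (189 to 248), and a control peak of the 9 lay 794 bp away. By significance and fold, CTCF came first among them, with 46 tags and a fold of 23.2, while JUND had the most tags, 92, at a fold of 5.83. On chromosome 5 from 60492781 to 60495278, 6 targets were called under RAD21 siRNA, JUND with 119 tags and a fold of 19.9. MYC had 77 tags there under RAD21 siRNA and 162 under control siRNA, and its fold was 20.8 and 10.7.

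Width and H3K4me1 picked out other kinds of site. The widest, on chromosome 17 from 16281288 to 16289121, spanned 7834 bp with 381 control tags and counted as retained through a siRAD21 peak of 68 tags whose summit lay 4727 bp from the control summit. The site on chromosome 7 from 130274315 to 130280240 had 224 control MYC tags inside a control H3K4me1 region of 13700 bp with 934 tags, and neither MYC nor H3K4me1 was called there under RAD21 siRNA, while JUND was, with 159 tags. Of all solitary sites without an overlapping mark, whose median significance was 61.1, 9.65% kept MYC. The 4 strongest sites with no H3K4me1 peak within 1000 bp under either siRNA all kept MYC. These 4 were picked by strength and lay in the strongest stratum, where 71.1% of solitary sites were retained. The strongest of them, on chromosome 2 from 112356913 to 112359203, held 88 MYC tags under RAD21 siRNA (70.6 to 108) and 209 under control siRNA (182 to 239). The one on chromosome 19 from 41513849 to 41515247 held 41 tags under RAD21 siRNA (29.4 to 55.6) and 61 under control siRNA (46.7 to 78.4), intervals that overlap.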

How the data were processed

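ChIP-seq peak lists of 22 libraries from GP5d cells, 11 targets under each of 2 siRNAs, were used. The 6 IgG libraries entered through the authors' peak calls. Per the submitters' processing notes, CASAVA 1.4, BWA and MACS 1.4 were used, on the hg18 build. The authors called peaks in each library with MACS 1.4.0rc2 against IgG of the same siRNA and host at a p cutoff of 1e-05 with 1 tag kept per position, per the file headers. Each deposited peak has a tag count, a score of −10 × log10 p (50 or more), a fold enrichment (a ratio over local background) and an FDR in percent, read from an unnamed column. Those values are the authors', and a change in the IgG library moves the last 3.

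Sites were matched by at least 1 shared bp, with Python 3.11.15, pandas 2.3.3 and scipy 1.17.1. Shares carry 95% Clopper-Pearson intervals and tags exact Poisson intervals. Differences at like strength are Mantel-Haenszel risk differences over 5 strata of −10 × log10 p of all control MYC peaks, with Sato's variance, tested on simulated data. Densities are tags per 1000000 filtered tags and kb. The sites named were, off chromosome 8, the 8 strongest retained, the 8 strongest with no siRAD21 MYC peak within 1000 bp, the 4 with most siRAD21 targets, the 4 widest and the 4 strongest without H3K4me1 within 1000 bp, with the few described in full chosen from these. The sites and the comparisons were chosen with earlier results of these data known.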

Additional observations from a re-analysis of the deposited data

How the results depend on the processing

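Each target had 1 library per siRNA, so no library could be left out, and peaks near the calling cutoff depend on depth and on the IgG library. No paired analysis was possible because the labels give no replicates. The number of solitary sites (3213) was 5279 with summits over 250 bp apart as the rule, 6434 with the other control lists held to a −10 × log10 p of 100, and 995 with MYC held to it. The retained share (30.7%) was 25.2% for summits within 250 bp, 34.2% for peaks within 1000 bp, 7.75% for siRAD21 MYC peaks at an FDR under 5%, 34.4% with both MYC lists held to 100, 49.1% for equal numbers of the strongest peaks, 33.1% with the summit rule and 28.6% with the other control lists held to 100. The difference from other MYC peaks (7.05 points) was 3.84 at that FDR, 13.4 with both MYC lists held to 100, 11.7 for equal numbers, 9.02 with the summit rule, 4.19 with the other control lists held to 100, 2.27 without strata, 3.36 with strata of fold, 9.15 with strata of significance crossed with width, and 0.499 against MYC peaks with 1 of the 9 targets, a comparison added after seeing the data. It was above 0 in all these settings, with an interval that includes 0 in the last.

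Under RAD21 siRNA, control siRNA and as the share kept, H3K4me1 at solitary sites was 79.5%, 79.2% and 88.8%. The 3 values were 67.9%, 68.1% and 82.6% for H3K4me1 peaks held to 100, 71.5%, 64.9% and 86.2% for summits inside a peak, and 83.8%, 83.9% and 91.6% for peaks within 1000 bp. At an FDR under 5% the control share was 63.6% and the share kept 92.6%. The share with any of the 9 targets under RAD21 siRNA (44.7%) was 20.2% at an FDR under 5%, 22.0% held to 100, 32.1% for summits within 250 bp and, added after seeing the data, 24.5% without JUND and NIPBL. The differences between retained and lost sites were 8.17 points for JUND and 11.8 for NIPBL at that FDR, and 33.9 for NIPBL without strata, all 3 added after seeing the data. The difference in median width between solitary and other MYC peaks (−275 bp) was −155 bp within strata of significance. Those in tags (−8) and fold (−0.13) turned to 0.438 and 0.217 within these strata. The cause of these shifts was not tested. With 1000 bp added to the rule, no value changed beyond its interval.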

Other observations

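The same rule can be read from the other side. Of 7264 siRAD21 MYC peaks, 1495 (20.6%, 19.7% to 21.5%) shared no base with a siRAD21 peak of the 9 targets. Of these, 456 (30.5%, 28.2% to 32.9%) overlapped a control MYC peak and 191 (12.8%) a solitary control site, where 61.2% of the siRAD21 MYC peaks with at least 1 of the 9 targets overlapped a control MYC peak. Only 192 of the 3213 solitary control sites (5.98%) overlapped a MYC peak that was solitary under RAD21 siRNA as well. MYC peaks without the other targets were thus mostly different places under the 2 siRNAs, by these lists and in 1 library each. Over all control MYC peaks, 28.9% overlapped a siRAD21 MYC peak. That share asks nothing of the other targets, so it is not a like measure to the 5.98%. From the siRAD21 side, solitary MYC peaks overlapped a control MYC peak less often than those with a target, 30.5% against 61.2%. Over all 7264 siRAD21 MYC peaks, 996 (13.7%) overlapped a solitary control site, close to the 12.8% of the solitary ones.

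By chromosome, the share of solitary sites retained ran from 14.9% (11 of 74) on chromosome 13 and 19.3% (17 of 88) on chromosome X to 42.4% (59 of 139) on chromosome 16. These are the extremes over all chromosomes and rest on small counts. The retained share of the other MYC peaks by chromosome was not analysed, so no pattern particular to solitary sites is read from them.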
